A study of Mus musculus with 5 samples.

Results

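In the deposited list of intervals from an immunoprecipitation (IP) of Flag-SAMD4, most of the IP reads lay in a few short stretches inside introns, and 3 of these stretches are described here. Reads outside the list, and library totals, are not known here. They are the intervals that the deposited list assigns to the gene names 2610528E23Rik, Filip1l, Zc3h7a, mmu-mir-689-2 and Jarid2. These 5 names, of 753 in the list, were chosen by their very high read numbers in the IP, so the depth itself is a description and was not tested. The list has 673 intervals of the mouse genome (build mm9), and the 5 names take 3 of them. An interval is a stretch of genome listed with its reads, and every listed interval held more IP than IgG control reads.

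The cells were osteoblasts of the FVB strain, taken from calvaria of mice 5 to 7 days after birth, immortalized with SV40 and infected with a lentivirus that expresses Flag-Samd4. They were Samd4PB/PB cells, in which a piggyBac transposon in the Samd4 locus lowers its transcript. The anti-Flag IP (2 libraries), the IgG control (2 libraries) and the input (1 library) share all of this, and the tagged protein came from a virus and not from its own promoter. The titles and sources of the control libraries name IgG, but their antibody field reads Flag with other catalogue numbers, a mismatch in the labels that bears on every ratio below. The list gives 1 read number per interval for the IP and 1 for the IgG. The spread between libraries is therefore unknown, the input was not analysed here, and every interval of confidence below covers counting error only. Of 9 osteoblast marker genes, Col1a1 was listed and the other 8 were not, and 0 of 8 markers of other cells were listed. A list of intervals higher in the IP is no measure of what the cells express, so these markers do not check the cell type.

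SAMD4 belongs to the Smaug family of proteins, which recognise short hairpins in mRNAs and keep those mRNAs from being translated. Introns are cut out of a transcript before it becomes an mRNA, and most are then degraded in the nucleus. The hosts of the deep intervals have unrelated roles. Jarid2 encodes a chromatin protein that joins Polycomb repressive complex 2 and helps to bring it to its target genes. Filip1l encodes a relative of a protein that binds filamin A, which cross-links actin. Zc3h7a encodes a protein with CCCH zinc fingers, a kind of domain often found in RNA-binding proteins. Cmss1 is named after a yeast protein of small ribosomal subunit assembly. RefSeq lists 2610528E23Rik as an older name of Cmss1, so both names stand for 1 gene. The name mmu-mir-689-2 is that of a microRNA hairpin, and its last digit marks it as 1 of several genomic copies.

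The deepest interval lies where Cmss1 and Filip1l overlap on opposite strands. It runs on chromosome 16 from 57391218 to 57391795, which is 578 bases. It held 1274567 IP reads and 88399 IgG reads. Per base of the interval, this was 2205 reads in the IP and 153 in the IgG. It had the most IP reads of all 673 intervals, whereas it was the third by IgG reads and the fifth by IgG reads per base. IP reads divided by IgG reads gave a ratio of 14.4 (95% interval 14.3 to 14.5). The deepest interval in the IP was thus not the deepest in the control.

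The Zc3h7a interval, which also holds the hairpin mmu-mir-689-2, lies on chromosome 16 from 11143995 to 11144534 and is 540 bases long. It held 436548 IP reads and 99783 IgG reads, or 808 and 185 reads per base. This was the second highest number in the IP and the highest of all in the IgG. Its ratio was 4.37 (95% interval 4.34 to 4.41), the lowest of the 3. Relative to the ratio of 5.15 over the 658 intervals with fewer than 10000 IP reads, it was 0.850, so its direction turns under this scaling, which was chosen after the values were seen. Library depths are not stated, and the reads alone do not set which scaling applies.

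The Jarid2 interval lies on chromosome 13 from 44964939 to 44965401 and is 463 bases long. It held 248021 IP reads and 39968 IgG reads, or 536 and 86.3 reads per base. Its ratio was 6.21 (95% interval 6.14 to 6.27). It was the fourth by IP reads and the sixth by IgG reads. The interval just above it, the third by IP reads, is not among those chosen. It lies on chromosome 9 at C230081A13Rik and the hairpin mmu-mir-2134-4, and held 309916 IP reads and 91039 IgG reads. Just below Jarid2, an interval in an intron of Arhgap21 held 213834 and 71412.

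**Figure D1:**
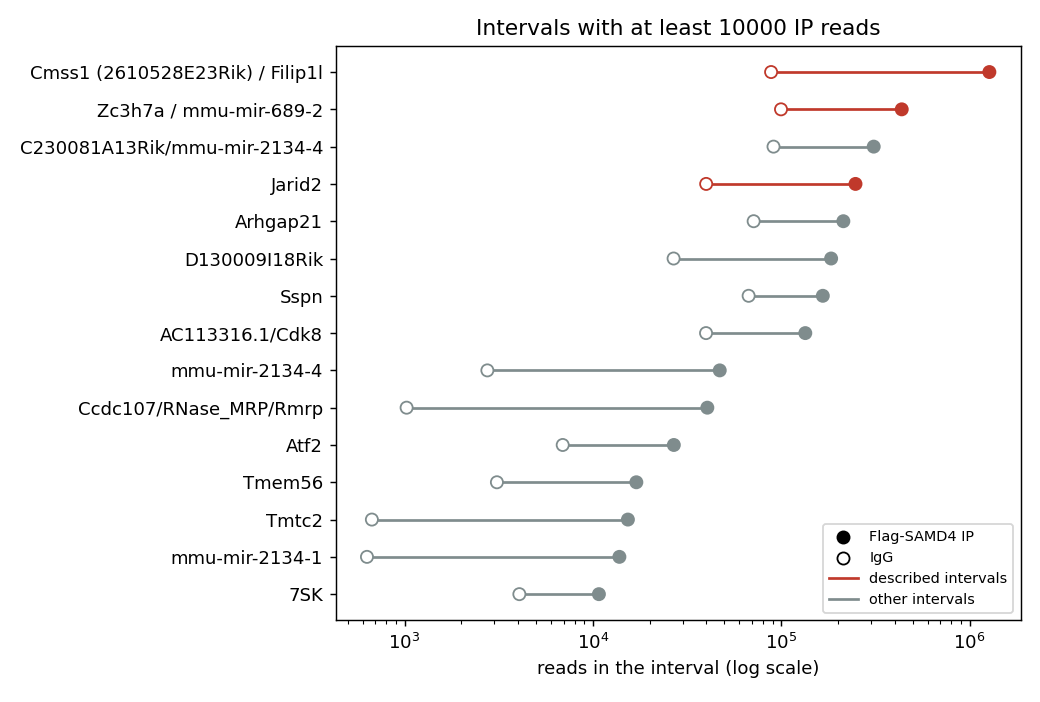
Reads in the Flag-SAMD4 IP (filled circles) and in the IgG (open circles) of the 15 intervals with at least 10000 IP reads, on a log axis, with 1 number per interval and antibody and no replicates. The described intervals (red) hold 248021 to 1274567 IP reads, and Zc3h7a with mmu-mir-689-2 has the highest IgG number, 99783.

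The 3 intervals differ from each other far beyond counting error, which takes every read as independent of the others. The ratio at Cmss1 and Filip1l was 3.30 times that at Zc3h7a (95% interval 3.26 to 3.33) and 2.32 times that at Jarid2 (95% interval 2.29 to 2.35). The ratio at Jarid2 was 1.42 times that at Zc3h7a (95% interval 1.40 to 1.44). Between Cmss1/Filip1l and Zc3h7a the IP reads differed by 2.92 times and the IgG reads by 1.13 times. The difference of this pair thus lies mainly in the IP, whose reads were used to choose both intervals. Between Jarid2 and Zc3h7a the IgG reads differed more (2.50 times) than the IP reads (1.76 times). A difference in depth between the IP and the IgG multiplies all ratios alike and leaves these quotients as they are. How much the separate libraries differ cannot be seen in these columns.

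Together the 3 intervals took 60.1% of the reads of the whole list in the IP and 40.2% in the IgG, on 0.468% of its bases. They summed to 1959136 IP reads and 228150 IgG reads, out of 3260616 and 567264 over all intervals. Choosing the 3 by IP reads by itself favours a larger share in the IP and a higher ratio than elsewhere, so neither contrast was tested. The interval of Cmss1 and Filip1l alone took 39.1% of the IP reads and 15.6% of the IgG reads. Zc3h7a went the other way, with 13.4% and 17.6%. Jarid2 took 7.61% and 7.05%, a nearly equal part of both. The larger share of the 3 in the IP thus rested on Cmss1 and Filip1l, and without that interval the other two took 21.0% of the IP reads and 24.6% of the IgG reads. The ratio of the summed reads was 8.59 (95% interval 8.55 to 8.62) for the 3 intervals and 4.90 without Cmss1 and Filip1l. Over the other 670 intervals it was 3.84 (95% interval 3.82 to 3.85). Most of those reads lay in 12 intervals with at least 10000 IP reads, whose ratio was 3.74. Over the 658 intervals under 10000 IP reads it was 5.15, which is above the 4.90. Intervals that share the name U3 held 2903, 2918, 2911 and 2981 IP reads, with 777, 778, 812 and 771 IgG reads. A further interval of that name held 2039 and 621. Whether the same read was counted at several intervals was not tested. The sums, shares and summed ratios here would include such a read at each of those intervals.

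**Figure D2:**
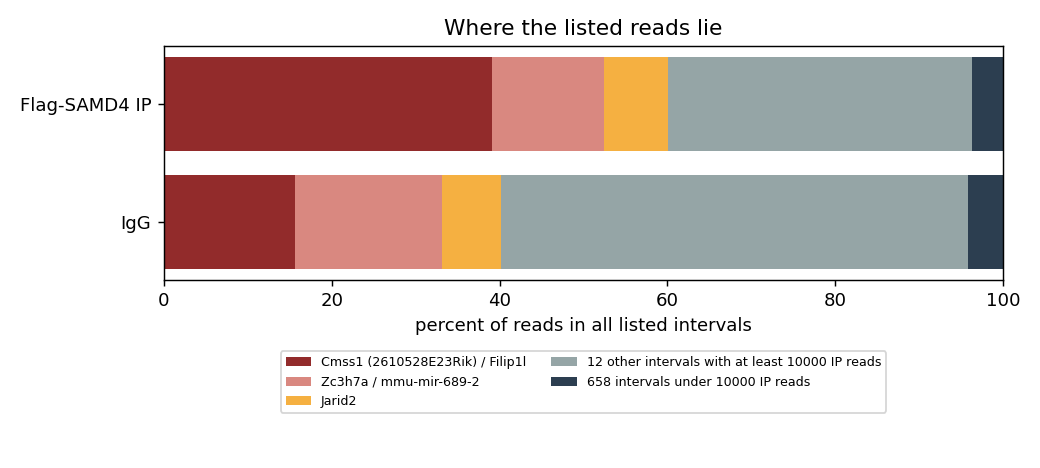
Percent of the reads of all 673 listed intervals, for the Flag-SAMD4 IP and for the IgG, divided among the 3 described intervals, the 12 other intervals with at least 10000 IP reads and the 658 below that. The segment of Cmss1 and Filip1l is 39.1% in the IP and 15.6% in the IgG, whereas that of Jarid2 is 7.61% and 7.05%.

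These shares set the scale of any sum over the list. The median of the 670 other intervals was 73 IP reads, 6 IgG reads and 0.185 IP reads per base. Against that median, the IP reads per base were 11922 times as high at Cmss1 and Filip1l, 4371 times at Zc3h7a and 2896 times at Jarid2. The intervals under 10000 IP reads, which are 658 of 673, summed to 3.72% of the IP reads and 4.16% of the IgG reads. The ratio of all listed reads, 5.75, is therefore almost wholly that of 15 intervals.

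The described intervals did not stand at the top of the list by ratio. Of the 3 intervals, Cmss1/Filip1l alone had at least 10 times as many IP as IgG reads, while 52.2% of all 673 intervals did, with intervals at 0 IgG reads counted among them. At least 5 times as many IP reads were found in 2 of the 3, with Jarid2 as the second, and in 75.8% of all 673. The median ratio of the other 670 intervals was 10.5, with the 97 at 0 IgG reads ranked highest. Most of these ratios rest on few IgG reads (median 6). The summed reads of the 658 intervals under 10000 IP reads gave 5.15, below the ratios of Cmss1/Filip1l and Jarid2. Of the other 670 intervals, 60.3% had a lower ratio than Cmss1 and Filip1l, 32.4% a lower one than Jarid2 and 19.1% a lower one than Zc3h7a. How intervals were admitted to the list is not stated, and intervals with lower ratios may not be listed. Of the 8 intervals with the most IP reads (134278 or more), the 5 that are not described here had ratios of 2.48 to 6.86, Jarid2 and Zc3h7a lay inside that range, and Cmss1/Filip1l lay above it.

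**Figure D3:**
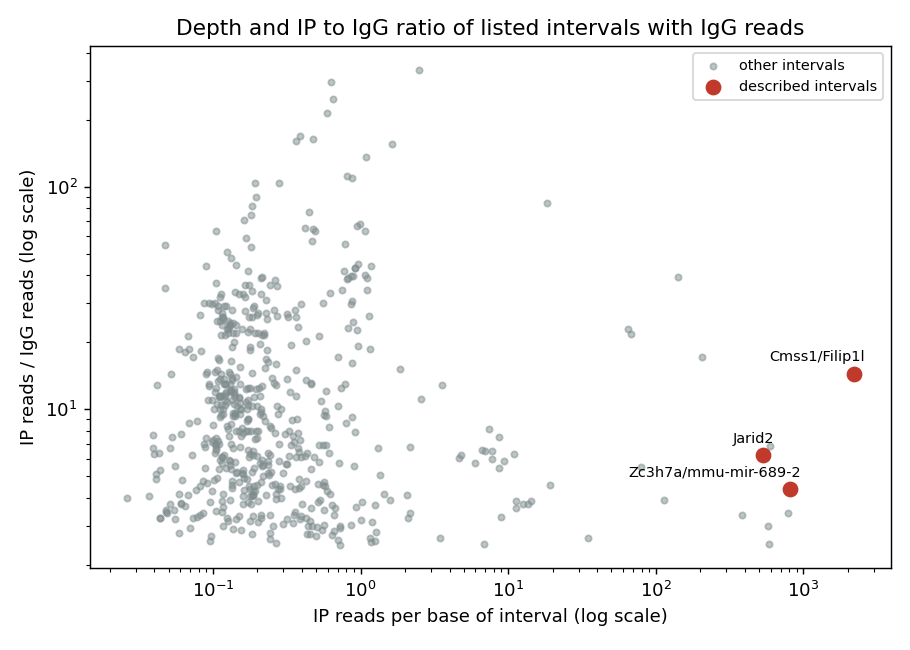
IP reads per base of the interval against the ratio of IP to IgG reads, both on log axes, 1 point per interval with at least 1 IgG read (the 97 intervals with 0 IgG reads are left out). The 3 described intervals (red) lie at the right edge or near it, at ratios of 4.37, 6.21 and 14.4, in a list whose ratios start at 2.47.

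The position in the genes was not used to choose the intervals. For the protein-coding hosts, every line of the list placed them in an intron. This was so for 4 transcripts of Filip1l, 3 of Cmss1 (2 of them under the name 2610528E23Rik), 8 of Zc3h7a and 21 of Jarid2, and each transcript held the interval whole. None of these genes had a second interval in the list, and 0 lines of theirs named an exon, coding bases or a UTR. A comparison with other intervals of the same genes was therefore not possible. Intervals of their mRNAs that were not higher in the IP may not be listed, so this does not show that the mRNAs had no reads.

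Filip1l and Cmss1 hold the deepest interval far from any exon that borders it. In Filip1l, on the plus strand, it lies in an intron of 153140 bases, 37646 bases after its upstream exon and 114916 before the next. In Cmss1, on the minus strand, it lies in an intron of 283122 bases, 214983 bases after the upstream exon and 67561 before the next. The interval fills 0.377% of the first intron and 0.204% of the second. Both introns begin close to a transcript start, 182 bases after it in the RefSeq transcript NM_001040397 of Filip1l and 202 bases after it in NM_025599 of Cmss1. The reads per interval are not split by strand, so they cannot be given to either gene.

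Zc3h7a holds its interval in a much shorter intron. It is 3408 bases long in 5 transcripts and 3470 in 3 others, and the interval fills 15.8% or 15.6% of it. The nearest exon is 738 bases away in the first form and 800 in the second. The hairpin mmu-mir-689-2 lies within the interval but on the plus strand, opposite to Zc3h7a. It has 57 bases, from 11144218 to 11144274, and takes bases 224 to 280 of the interval, with 223 bases before it and 260 after it. The interval is 9.47 times as long as the hairpin, so the hairpin annotates 10.6% of the bases whose reads were counted. How the reads divide between these bases and the flanks is not part of the list. No mature sequence of this microRNA was found among the microRNA sequences used here.

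Jarid2 lies on the plus strand, and its interval sits near the downstream end of the intron in most transcripts. In 18 of 21 transcripts the intron has 25861 bases, and the interval begins 21148 bases into it and ends 4250 bases before the next exon. In 1 transcript each, the intron has 33402, 50767 or 36282 bases, the first 2 with the same downstream exon. The third, ENSMUST00000173367, skips that exon and leaves 14671 bases to the next. In all 4 forms the interval is intron sequence and covers 0.912% to 1.79% of it.

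**Figure D4:**
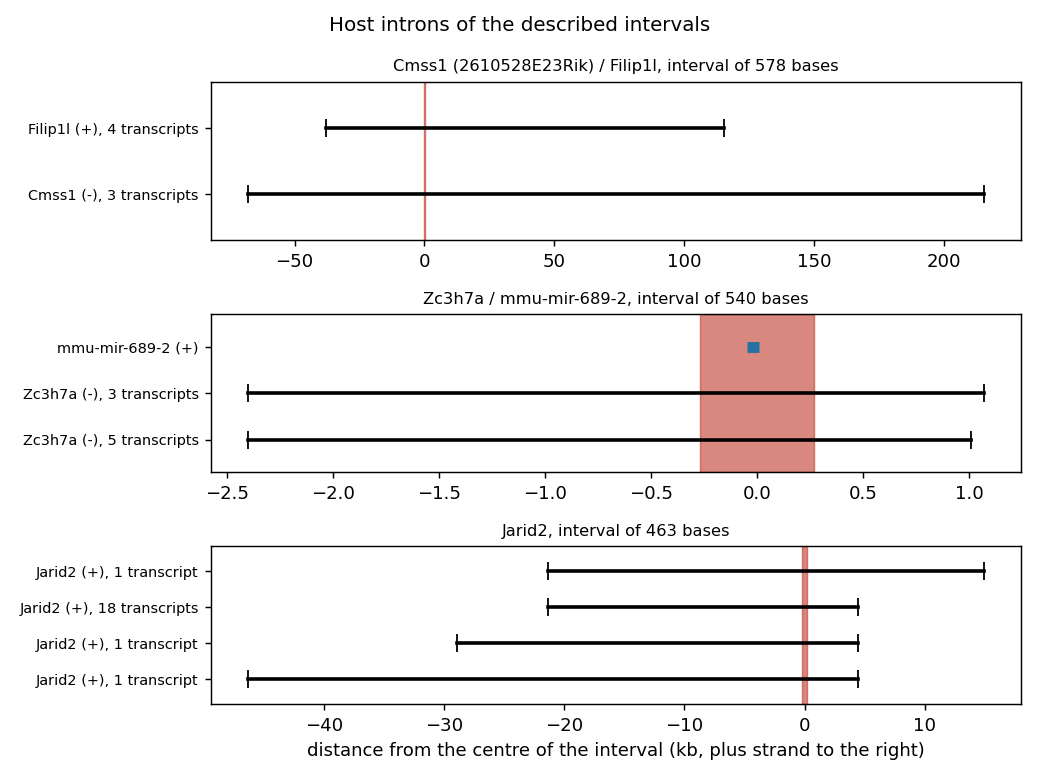
Introns of each host gene that hold a described interval, as black lines with end marks at the exon borders, against the distance in kb from the centre of the interval. The red band is the interval to scale, the signs give the strand, and the hairpin mmu-mir-689-2 (blue, 57 bases) lies within the interval of 540 bases in the Zc3h7a intron.

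Lying in introns alone was rare in the list as a whole and common at its deep end. Lines naming only introns were found for 16 of 673 intervals (2.38%), and these include the intervals of Cmss1/Filip1l and Jarid2. The Zc3h7a interval joins them when the hairpin is set aside, since its other lines are all introns. Of the 15 intervals with at least 10000 IP reads, 8 lay in introns alone and 0 touched coding bases or a UTR, whereas 79.6% of all 673 intervals did touch coding bases or a UTR. The 8 intron-only intervals below 10000 IP reads held 39 to 898 IP reads and at most 3.55 per base. The deepest of them lies in 9330185C12Rik, with 898 IP and 70 IgG reads. The intron-only intervals therefore form 2 groups by depth with a wide gap between them, from 898 to 15352 IP reads.

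The intervals most like those described, by IP reads per base, were those of C230081A13Rik with mmu-mir-2134-4 (781 IP reads per base), D130009I18Rik (596), Sspn (586), Arhgap21 (572) and Cdk8 with AC113316.1 (383). Sspn encodes sarcospan, a protein of the dystrophin complex, and Cdk8 a kinase of the Mediator complex. Jarid2, at 536, falls between Arhgap21 and Cdk8, so its depth does not set it apart from intervals outside the chosen names. In the IgG, the Sspn interval was the deepest of all with 236 reads per base, above Zc3h7a with 185. The IP ratio of D130009I18Rik was 6.86, close to that of Jarid2, whereas that of Sspn was 2.48, the lowest of the deep intervals.

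MicroRNA names are another feature of the deep end. In all, 4 intervals carried such a name, and all had at least 10000 IP reads. The interval of mmu-mir-689-2 was the deepest of them. That of mmu-mir-2134-4 on chromosome 9 held 309916 IP and 91039 IgG reads. A second interval with the same name, on chromosome 13, held 47176 and 2754, and that of mmu-mir-2134-1 on chromosome 1 held 13834 and 632. The ratio was 4.37 at mmu-mir-689-2 and 3.40 at the interval on chromosome 9, against 17.1 and 21.9 at the shallower intervals. The list thus uses the same hairpin name on 2 chromosomes. The sequences of the intervals were not read, since no genome of build mm9 was used here, so a match to repeated RNAs such as ribosomal RNA was not tested. The sources used here do not say how reads that match several places were handled. Their part in the depth and in the summed reads was not tested either.

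The described intervals were also longer than the other deep intervals, most of which were shallower. They measured 463, 540 and 578 bases, and the 12 other intervals with at least 10000 IP reads measured 205 to 397. The median of those 12 was 43857.5 IP reads, against 248021 or more in the described intervals. Length was therefore not compared at equal depth. In the whole list, where the median was 309 bases, they ranked 156, 168 and 209 by length, so they were not among the longest.

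The distance to the nearest other interval varied widely among the 3, on both sides of the median of 156 kb over the other 670 intervals. The nearest other interval to Zc3h7a was 19.3 kb away, in an intron of Txndc11, which encodes a thioredoxin-domain protein of the endoplasmic reticulum. It was 17 bases long, the shortest of all 673, and held 0 IgG reads and 45 IP reads (95% interval of this count 32.8 to 60.2). The nearest one to Cmss1 and Filip1l was 1355 kb away, at Trmt10c and SNORA70, with 111 IP and 12 IgG reads. For Jarid2 it was Txndc5, 6345 kb away, with 38 IP and 5 IgG reads. A larger distance was found for 66.4% of the other intervals than at Zc3h7a, for 25.4% than at Cmss1 and Filip1l, and for 7.16% than at Jarid2.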

How the data were processed

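RNA immunoprecipitation libraries (2 anti-Flag, 2 IgG, 1 input) were grouped by their titles. According to the submitters' notes, the authors aligned reads to mm9 with TopHat2 2.0.9. The sources used here do not give the interval caller, library depths, strandedness or whether libraries were pooled. In the deposited table, 16285 lines pair 673 intervals with transcripts. Its deposited units are a count of IP reads and a count of IgG reads per interval, a number of overlapping bases (other), and the authors' own p-value, q-value and fold ratio, which compare IP with IgG and were not used. Starts were converted to count from 1. The overlap column equalled the shared bases in 16285 of 16285 lines.

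Each distinct interval was counted once (0 pairs touch or overlap). Ratios were IP over IgG reads, with 95% intervals from the exact Clopper-Pearson interval of the IP share. Quotients of ratios used the normal approximation for log counts, and single counts the exact Poisson interval. Reads without molecular identifiers are not independent molecules. No test was made, since members were chosen by depth and there is 1 value per antibody. The members and lists were chosen with earlier results of these data known. Named genes were the 5 members, names sharing their intervals, and the deepest other intervals by IP reads and by reads per base (5 each), with the nearest listed intervals and further intervals named for a count added after their values were seen. The ratio interval was tested on reads simulated from the binomial model that it assumes. That checks the calculation and not whether the model holds for these reads. Symbols came from RefSeq (GRCm38.p6), of which no coordinates were used. Python 3.11.15, pandas 2.3.3 and SciPy 1.17.1 were used.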

Additional observations from a re-analysis of the deposited data

How the results depend on the processing

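No paired analysis was possible because the columns carry no library numbers, and leaving out single libraries was not possible for the same reason. Adding 1 to the IgG reads left the ratios within their counting error. Merging had nothing to act on, since 0 pairs of intervals touch. With RefSeq lines alone, 3 of the intervals lay in introns alone in place of 2, since the hairpin has no such line. Divided by the ratio over the other 670 intervals, the ratios became 3.76 at Cmss1/Filip1l, 1.14 at Zc3h7a and 1.62 at Jarid2. Divided by that over intervals under 10000 IP reads, a setting added after the data were seen, they became 2.80, 0.850 and 1.21, so Zc3h7a turned to below the reference. Both settings change the scale of the ratio by construction. The ratio of the summed reads, 8.59, became 6.21 as the median of the 3 and 4.90 without Cmss1/Filip1l. The share of reads in the 3 intervals became 87.0% (IP) and 84.2% (IgG) without the 5 deepest others in the total, and 46.8% and 29.7% on reads per base. For the 3 deepest intervals whatever their gene, added later, it was 62.0% and 49.2%. At 5 times in place of 10 times the IgG reads, 2 of the 3 intervals passed in place of 1, with 75.8% of all intervals. Counting error is small at this depth, and the spread between libraries stays unknown.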
